A study of Mus musculus with 6 samples.

Results

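The transcription factors that direct blood progenitors into the megakaryocyte and erythroid lineages were described in Kit-positive bone marrow cells from wild-type mice and from mice labelled as conditional knockouts of Ints11. The set holds 10 genes, chosen by symbol: the GATA factors Gata1 and Gata2, their partner Zfpm1, the complex members Tal1 and Lmo2, the repressor gene Gfi1b, and the lineage regulators Klf1, Nfe2, Fli1 and Runx1. All 10 are among the 24062 genes of the deposited table, and all 10 passed the filter on low counts. The cells, lineage-negative by the series' design, came from C57BL/6 mice, 3 wild-type (WT) mice and 3 littermates that carried Mx1-Cre and floxed Ints11 alleles (KO), with 1 mouse per library. The KO label names a gene deleted by Cre, and the Mx1 promoter answers to interferon in many cell types of the marrow. Mice received poly(I:C), an RNA mimic that induces interferon, and cells were sorted 4 days later. That time is given for WT and KO libraries alike, and the sources used here give neither the ages nor whether the WT mice carried Mx1-Cre. Libraries are named by genotype and mouse number.

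GATA1 and GATA2 are zinc finger proteins that bind the same DNA word. In the usual course of red cell and megakaryocyte formation GATA2 acts early, in stem and progenitor cells, and GATA1 later takes its place at many sites and lowers Gata2 transcription. ZFPM1, also named FOG1, binds GATA factors and is needed for this exchange and for both lineages. TAL1, a helix-loop-helix protein, and LMO2, a bridging protein that does not itself bind DNA, join GATA factors in 1 complex. GFI1B is a repressor needed for both lineages, KLF1 drives the red cell genes, FLI1 and RUNX1 act in megakaryocytes and NFE2 in platelet release.

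Gata2 and Zfpm1 rose in the KO libraries, by 2.66-fold and 2.05-fold, and the other 8 factors did not pass the test. Of the 10 factors 2 were called higher and 0 lower, where 16.0% of all 15742 tested genes were called higher and 19.9% lower, 35.9% in either direction (edgeR's quasi-likelihood test, adjusted p of 0.05 over all genes). The groups did not overlap for the same 2 factors, with KO above WT, as for 25.6% of all tested genes, while KO was below WT for 0 factors and 28.4% of all tested genes. With upper-quartile scaling, 22.0% of all genes were higher and 12.3% lower. The median log2 change of the 10 factors was 0.39, against 0.01 over all tested genes. Gata1, Gfi1b and Klf1 split the WT mice: WT_341 held 2.19, 2.77 and 2.52 times the mean of WT_343 and WT_344, and all KO libraries lay above WT_343 and WT_344 for these genes. The plot of levels by library shows these patterns.

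**Figure D1:**
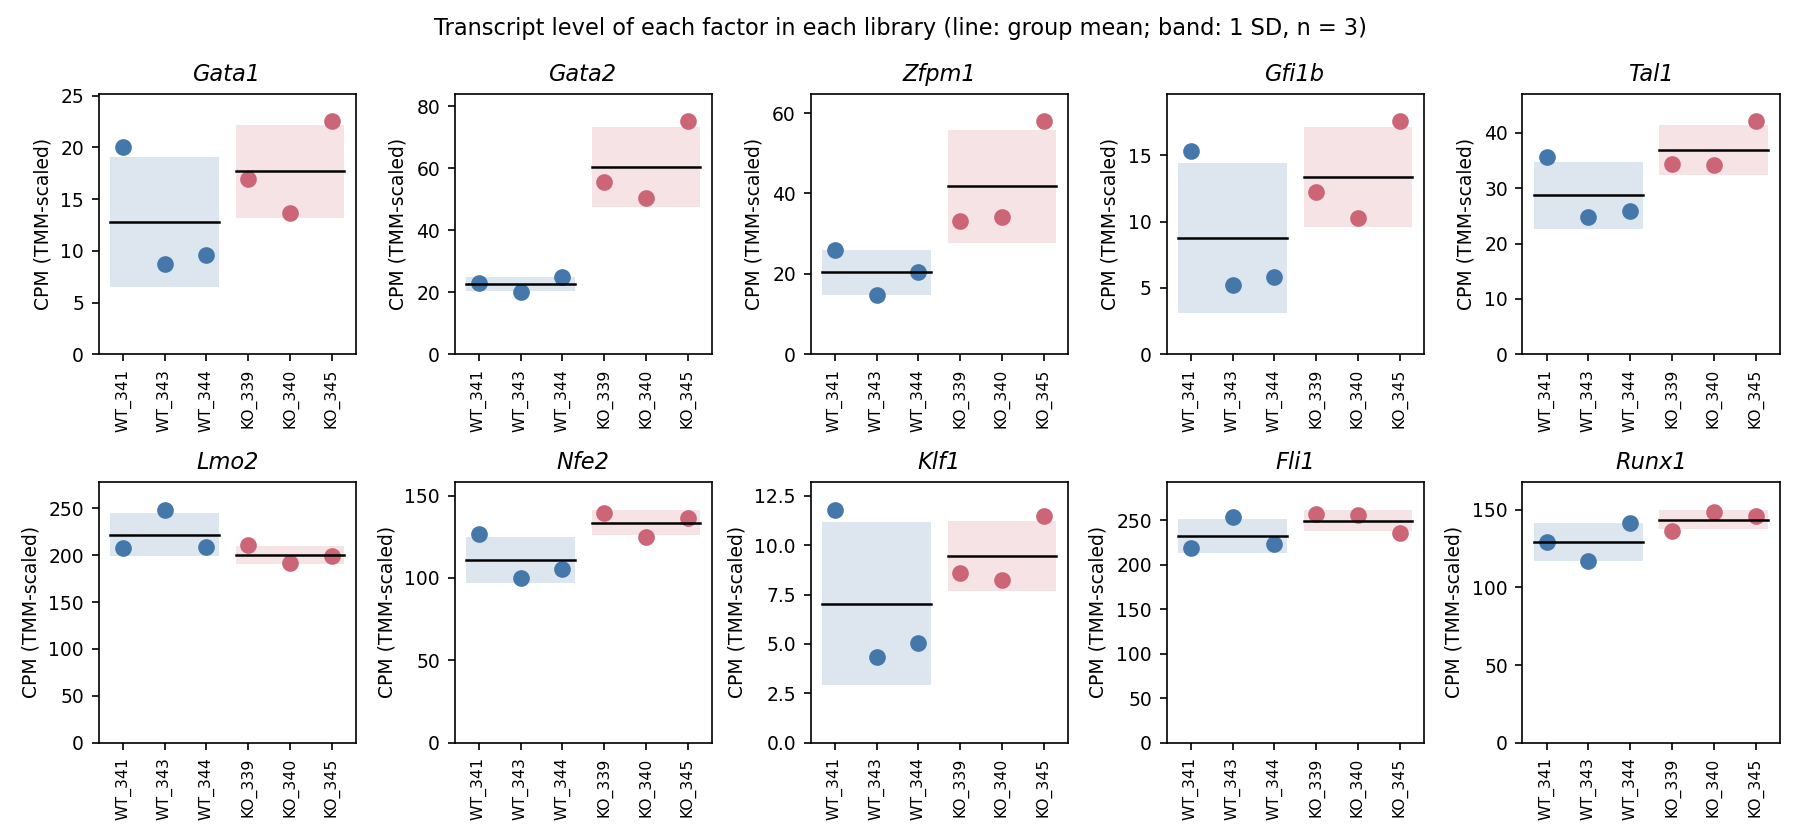
Level of each of the 10 factors (vertical axis, TMM-scaled CPM, starting at 0) in the 3 WT (blue) and 3 KO (red) libraries; the line is the group mean and the band 1 SD. Gata2 and Zfpm1 are higher in every KO library than in every WT library, and Gata1, Gfi1b and Klf1 stand high in WT_341.

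Totals were 124074531 to 166860739 counts per library, and the lowest count of a factor was 682, for Klf1 in WT_343. Kit itself, the gene of the sorted receptor, was at 199 to 221 CPM in WT and 220 to 238 CPM in KO libraries (CPM is the count scaled to a common library size with TMM factors). Ints11, listed under its older symbol Cpsf3l, was at 73.8 to 92.3 CPM in WT and 58.3 to 64.3 CPM in KO libraries (log2 change -0.42, adjusted p = 0.0174). The libraries also differed in markers of other cells. The 17 tested neutrophil genes summed to 12690 to 39658 CPM in WT and 47526 to 62289 CPM in KO libraries, so mature myeloid transcripts were present in all 6 and highest in the KO libraries. Among the WT libraries this sum was highest in WT_341. WT_341 stood apart from the other WT libraries, with Xist (a gene named after its values were seen) at 4.61 CPM against 2022 and 2221 CPM. Xist was at 1.80 and 3.69 CPM in KO_339 and KO_340 and at 2307 CPM in KO_345, so low levels stood in 1 WT and 2 KO libraries, and the sources used here do not give the sex of the mice. C1qa, a macrophage gene, was at 4.49 CPM in WT_341 against 56.4 and 53.5 CPM in the other WT libraries. The part of these differences in the results below was not tested. In bulk samples, fewer cells of a type and less RNA per cell cannot be told apart.

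Gata2 showed the largest change of the 10 factors. Its level was 23.03, 20.1 and 24.9 CPM in WT_341, WT_343 and WT_344, and 55.6, 50.5 and 75.1 CPM in KO_339, KO_340 and KO_345. The WT libraries lay close together, and the lowest KO library held more than double the highest WT library. Means were 22.7 ± 2.38 and 60.4 ± 12.99 CPM (SD, n = 3 each), with a log2 change of 1.41 ± 0.16 (SE) and an adjusted p of 0.00306. In GRCm38 coordinates the gene covers bases 88193891 to 88207032 of chromosome 6, forward strand. The rise was called in all 14 alternative analyses, with log2 changes of 1.253 to 1.55. Gata2 ranked 186 of 15742 genes by p.

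Zfpm1 rose next to it. The WT libraries held 25.9, 14.7 and 20.5 CPM and the KO libraries 33.2, 34.2 and 57.9 CPM. KO_345 was the highest library by a wide margin, 1.72 times the mean of the other KO libraries. The means of 20.4 ± 5.598 and 41.8 ± 13.99 CPM gave a log2 change of 1.03 ± 0.27 (SE; adjusted p = 0.0249). Zfpm1 lies on chromosome 8, 122282141 to 122337251, forward strand. Its call was lost without WT_343 (log2 change 0.84), WT_344 (1.03), KO_339 (1.201) or KO_345 (0.75), with adjusted p-values of 0.0508 to 0.0760.

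Gata1, the partner that takes over from GATA2 in maturing red cells and megakaryocytes, was at 20.04, 8.75 and 9.59 CPM in WT_341, WT_343 and WT_344. The KO libraries held 16.9, 13.6 and 22.5 CPM. All 3 KO libraries were above WT_343 and WT_344, while WT_341 was above 2 of them. At 0.47 ± 0.34 (SE), its log2 change did not pass (adjusted p = 0.298).

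Gfi1b followed the same pattern, with 15.3, 5.20 and 5.85 CPM in WT_341, WT_343 and WT_344 and 12.3, 10.3 and 17.6 CPM in KO_339, KO_340 and KO_345. WT_341 again lay above KO_339 and KO_340. The log2 change of 0.61 ± 0.42 (SE) did not pass either (adjusted p = 0.283). Klf1, the red cell activator, was at 11.8, 4.32 and 5.04 CPM in the WT and 8.59, 8.25 and 11.5 CPM in the KO libraries. Here WT_341 was the highest of all 6. For Klf1 the log2 change was 0.42 ± 0.37 (SE; adjusted p = 0.394). The WT spread, a 2.29-fold to 2.94-fold range for these 3 genes, was wider than the range among KO libraries, 1.39-fold to 1.70-fold.

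Without WT_341 these 3 genes passed the test. Gata1 was then 1.91-fold higher in KO libraries (log2 change 0.94 ± 0.21, SE, adjusted p = 0.00999), Gfi1b 2.40-fold (1.27 ± 0.23, adjusted p = 0.00477) and Klf1 2.01-fold (1.004 ± 0.18, adjusted p = 0.00376). Tal1 and Nfe2 also passed. In all 7 of the 10 factors were then higher and 0 lower, where 22.1% of 16185 tested genes were higher and 26.6% lower. The WT libraries left in this fit, WT_343 and WT_344, were both high in Xist, while KO_339 and KO_340 were low. Genotype and Xist level were thus partly confounded there, and the part of this was not tested. Gata2 had the same log2 change of 1.41 with and without WT_341. Leaving out any other single library left 1 or 2 factors called. The result for Gata1, Gfi1b and Klf1 therefore rests on 1 WT mouse, and the cause of its difference was not tested. WT_341 was singled out after it was seen to be high for these genes. Their p-values without it are therefore no separate support for a rise.

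**Figure D2:**
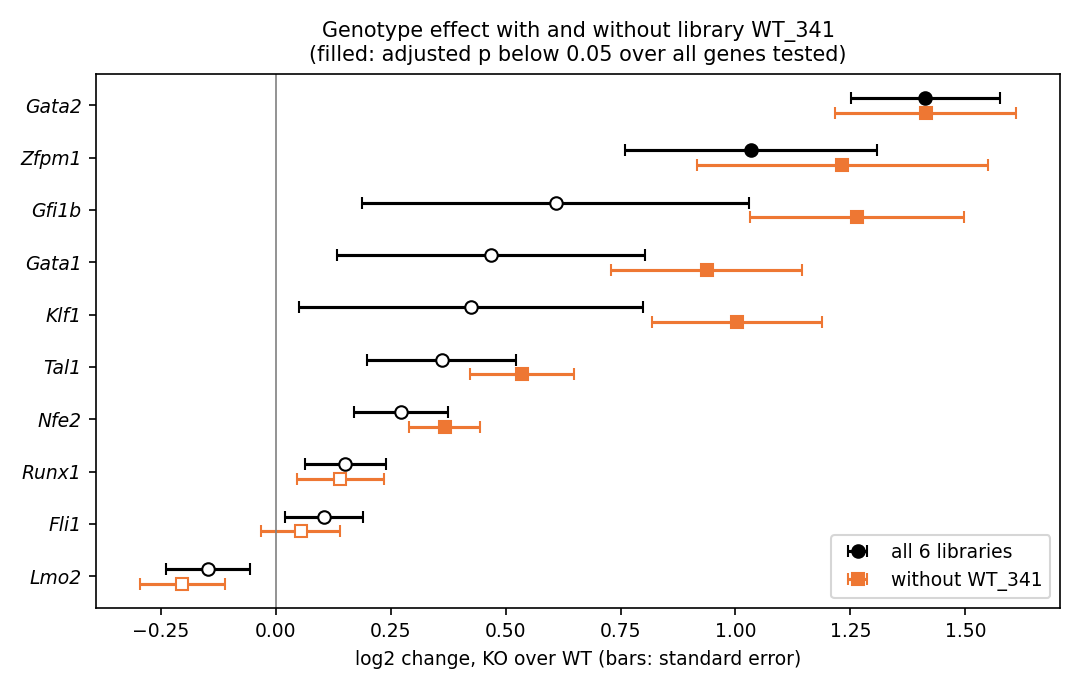
Log2 change of each factor, KO over WT, with its standard error (horizontal axis), from all 6 libraries (black circles) and without WT_341 (orange squares); filled symbols passed an adjusted p of 0.05 over all genes tested. Gata2 stays at 1.41, while Gata1 goes from 0.47 to 0.94, Gfi1b from 0.61 to 1.27 and Klf1 from 0.42 to 1.004.

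The DNA before the start sites of the 3 genes at least 2-fold higher in WT_341 than in the other WT mice, of Tal1, which had a smaller difference of that kind (1.41-fold), and of Gata2, which had none (1.02-fold), is shown with any GATA words marked. These genes were chosen with their levels known, and a link between the words and the levels was not tested. The words searched were AGATAA and its variant AGATAG, as well as TGATAA and its variant TGATAG, on either strand in the 250 bases before a RefSeq start site (GRCm38.p6). Such a word stood in 26.5% of 32851 windows of this length, and in 3 of the 10 windows of the 7 factors with an entry (Gata1, Gata2, Zfpm1, Gfi1b, Tal1, Klf1 and Runx1), 1 each before Gfi1b, Tal1 and Klf1. The window of Zfpm1 is not shown and held no such word, although Zfpm1 had a larger WT_341 difference (1.47-fold) than Tal1. Capitals mark the words, which read TTATCA in Klf1 and TTATCT in Tal1, where the word lies on the other strand. The sequences are written 5′ to 3′ along each gene's strand, and the Klf1 sequence stops where the GENCODE annotation begins an exon.
Gata1 (chrX:7967911-7968160, reverse strand, in an intron of a longer Gata1 transcript): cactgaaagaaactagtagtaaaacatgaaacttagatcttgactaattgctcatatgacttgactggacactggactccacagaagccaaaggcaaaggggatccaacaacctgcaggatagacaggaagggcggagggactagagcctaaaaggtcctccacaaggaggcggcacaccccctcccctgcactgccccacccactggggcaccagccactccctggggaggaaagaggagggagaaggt
Gfi1b (chr2:28621983-28622232, reverse strand): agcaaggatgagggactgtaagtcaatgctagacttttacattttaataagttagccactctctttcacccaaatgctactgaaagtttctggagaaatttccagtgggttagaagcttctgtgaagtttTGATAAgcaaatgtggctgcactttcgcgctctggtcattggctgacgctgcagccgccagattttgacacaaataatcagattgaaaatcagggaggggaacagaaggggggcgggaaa
Klf1 (chr8:84901732-84901927, forward strand): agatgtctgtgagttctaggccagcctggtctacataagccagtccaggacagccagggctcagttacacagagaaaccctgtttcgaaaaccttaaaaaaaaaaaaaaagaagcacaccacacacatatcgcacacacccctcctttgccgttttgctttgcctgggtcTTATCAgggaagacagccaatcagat
Tal1 (chr4:115056176-115056425, forward strand, the upstream start site): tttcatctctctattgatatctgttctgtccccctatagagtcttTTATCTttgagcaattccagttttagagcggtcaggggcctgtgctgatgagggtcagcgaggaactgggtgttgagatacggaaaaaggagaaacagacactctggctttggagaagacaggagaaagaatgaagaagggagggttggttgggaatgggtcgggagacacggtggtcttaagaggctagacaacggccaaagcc
Gata2 (chr6:88193641-88193890, forward strand, the upstream start site): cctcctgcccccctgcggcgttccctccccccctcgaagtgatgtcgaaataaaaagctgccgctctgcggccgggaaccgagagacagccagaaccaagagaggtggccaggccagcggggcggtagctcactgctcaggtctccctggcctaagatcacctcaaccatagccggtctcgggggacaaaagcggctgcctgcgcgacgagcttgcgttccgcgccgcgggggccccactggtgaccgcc
The word in Gfi1b begins 120 bases before the start site that in Klf1 80 bases and that in Tal1 205 bases before it. The Gata1 and Gata2 windows hold none of these letters, which says nothing about sites elsewhere. CACCC words of the KLF type stood in 9.13% of windows and in those of Zfpm1 and the downstream Runx1 start site.

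Tal1 and Lmo2 encode the parts of the GATA complex that surround the GATA factor. Tal1 was at 35.7, 24.7 and 25.8 CPM in WT_341, WT_343 and WT_344 and at 34.5, 34.2 and 42.1 CPM in the KO libraries. As for Gata1, WT_341 lay among the KO libraries and the other WT libraries below all of them. The log2 change of 0.36 ± 0.16 (SE) did not pass (adjusted p = 0.117), and without WT_341 it was 0.54 with an adjusted p of 0.00647. Lmo2 was the only factor with a lower mean in the KO libraries. Its levels of 208, 248 and 209 CPM in WT and 210, 191 and 199 CPM in KO libraries overlapped, with a log2 change of -0.15 ± 0.09 (SE, adjusted p = 0.232). No alternative called it.

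Nfe2, the p45 subunit that pairs with small MAF proteins, was at 126, 100.2 and 105 CPM in WT and 139, 125 and 137 CPM in KO libraries. Only WT_341 and KO_340 overlapped. Its log2 change of 0.27 ± 0.10 (SE) missed the threshold (adjusted p = 0.0729). It passed in 5 of 14 alternatives, among them library totals only (0.37) and the fit without WT_341 (0.37).

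Fli1, an ETS factor of megakaryocytes, was at 219, 254 and 223 CPM in WT and 257, 256 and 236 CPM in KO libraries, and Runx1 at 129, 117 and 142 CPM and 137, 148 and 146 CPM. Both sets of libraries overlapped. Their log2 changes were 0.10 ± 0.08 and 0.15 ± 0.09 (SE), with adjusted p-values of 0.353 and 0.202. With upper-quartile scaling, which moved the median of all tested genes from 0.01 to 0.15, both were called higher (0.24 and 0.29). An antisense gene shares 106 of the 12025 exonic bases of Runx1, and no other factor shares exonic bases with another annotated gene.

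To compare genes, levels were divided by the length of all annotated exons of a gene, 12025 bases for Runx1 and 1530 for Klf1. These are not the lengths of the transcripts in use, and the order below depends on them. On this scale Lmo2 was the most abundant factor in WT libraries with 102.4 ± 10.6 CPM per kb. Fli1 followed with 66.6 ± 5.46, Nfe2 with 37.04 ± 4.65 and Runx1 with 10.8 ± 1.03 (SD, n = 3). Each of these lay above the next without overlap between libraries. The other 6, Tal1, Zfpm1, Gata1, Gfi1b, Klf1 and Gata2, had WT means of 6.57 down to 4.20 CPM per kb, and neighbours in this order overlapped. Gata2 had the lowest WT mean, but by library it was lowest in WT_341 only and lay above Gata1, Gfi1b and Klf1 in WT_343 and WT_344. In KO libraries the 4 leading genes kept their order, Zfpm1 (11.9 ± 3.99) and Gata2 (11.2 ± 2.41) came next and overlapped with Runx1 (11.95 ± 0.517), and Klf1 was lowest with 6.17 ± 1.17 CPM per kb.

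Ratios of regulators of different stages or lineages were compared within each library, where the scaling of libraries has no part. The log2 ratio of Gata1 to Gata2 counts was -0.20, -1.20 and -1.37 in WT_341, WT_343 and WT_344, and -1.72, -1.89 and -1.74 in KO_339, KO_340 and KO_345. Every KO library was below every WT library, and the KO libraries lay close together. The difference was -0.85 on the log2 scale (exact two-sided permutation test, p = 0.10, the smallest that 3 against 3 libraries allow, adjusted p = 0.40 over 4 ratios), and -0.49 without WT_341.

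The other 3 ratios overlapped between genotypes. Fli1 to Klf1, megakaryocyte against red cell regulator, had a difference of -0.45 (exact permutation p = 0.50) and -0.94 without WT_341. Gata1 to Spi1, which encodes the myeloid factor PU.1, had a difference of 0.35 (exact permutation p = 0.60), and Gfi1b to its myeloid paralogue Gfi1 of 0.69 (exact permutation p = 0.30). Without WT_341 these were 0.77 and 1.19. Spi1 itself was at 139 to 168 CPM in WT and 158 to 178 CPM in KO libraries, and Gfi1 at 180.2 to 195 and 159 to 241 CPM.

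**Figure D3:**
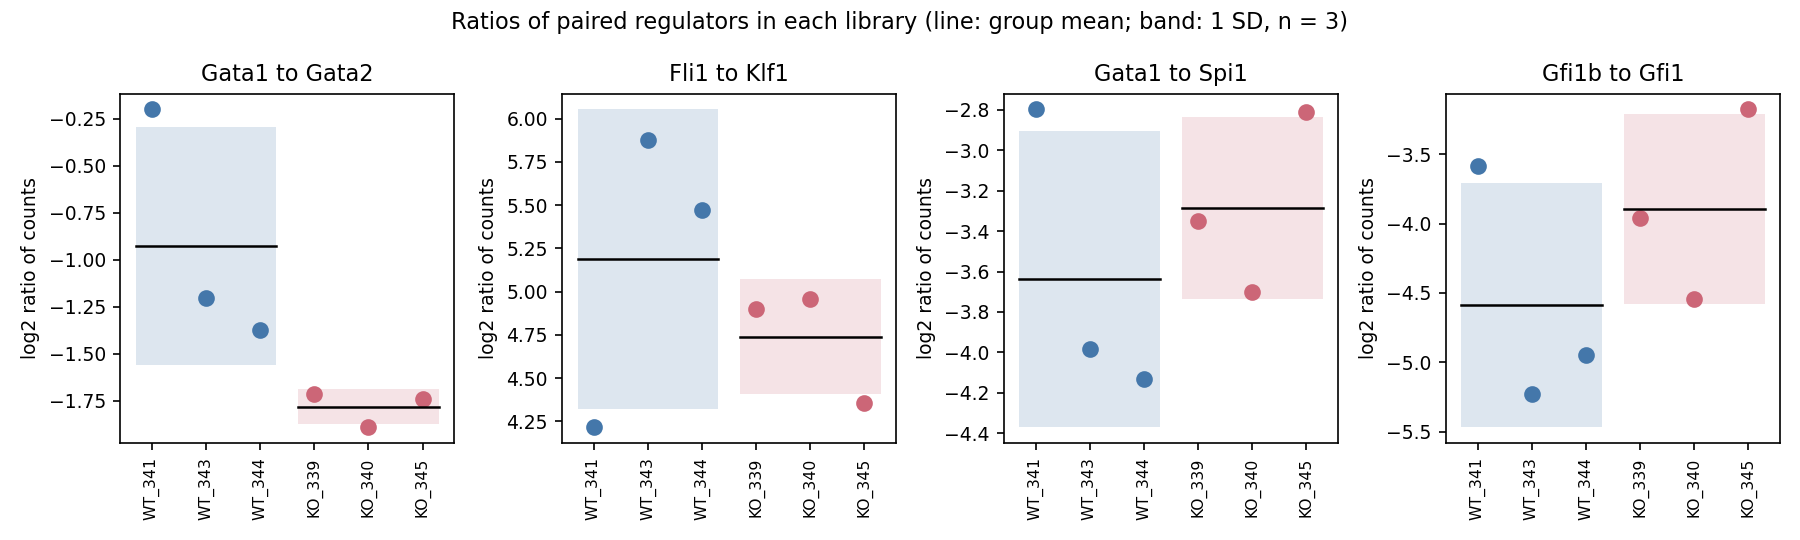
Log2 ratio of the counts of 2 regulators in each library (vertical axis, one panel per ratio; lines are group means, bands 1 SD) for WT (blue) and KO (red). The Gata1 to Gata2 ratio is lower in all KO libraries, at -1.72 to -1.89, than in all WT libraries, and the other ratios overlap.

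Few of the genes whose products work with these factors passed the test. Of 22 tested co-regulators of the GATA complex 1 was higher and 4 lower, with a median log2 change of -0.10. The 18.2% called lower was close to the 19.9% of all tested genes. The lower ones were the histone deacetylase genes Hdac1 (log2 change -0.58) and Hdac3 (-0.54), the histone demethylase gene Kdm1a (-0.27) and its partner Rcor1, while Hdac2 did not pass (adjusted p = 0.0691). Lmo4, a relative of Lmo2, was the higher one (0.55). Values for Ldb1, which holds the complex together, were 96.9 to 103.2 CPM in WT and 109.97 to 115 CPM in KO libraries, and did not pass (adjusted p = 0.0781). With upper-quartile scaling the counts became 4 higher and 2 lower, and without WT_341 they were 1 and 7.

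Among relatives of the 10 factors, 8 of 21 tested were higher and 2 lower, with a median of 0.25. Besides Lmo4, the helix-loop-helix gene Tal2 rose (log2 change 2.51) from 0.140 to 0.792 CPM, Gata3 (1.66) from 0.610 to 1.93 CPM and Lmo1 (0.68) from 11.9 to 19.1 CPM. The ETS genes Erg, Ets1 and Ets2 rose by 0.46, 0.78 and 0.64 on the log2 scale. The count of higher genes fell to 5 without WT_344, KO_339 or KO_340, and that of lower genes, Nfe2l1 and Elf1, to 0 without any single library but WT_341. Of 19 regulators of neighbouring lineages 6 were higher and 1 lower, and without WT_341 9 were higher and 4 lower. Irf8, of the monocyte branch, fell (-1.30) from 99.5 to 40.3 CPM, while the granulocyte factor Cebpe (0.80), Meis1 (0.70) and Hhex (0.60) rose.

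Red cell genes, many of them known targets of GATA1 and KLF1, moved in 2 ways. Of 39 tested, 12 were lower and 2 higher in KO libraries, with a median log2 change of -0.52. Without WT_341 the median was 0.07. The lower genes included enzymes of haem synthesis, Fech (from 47.2 to 25.9 CPM, log2 change -0.86), Urod (-0.71), Uros (-1.15) and Cpox (-0.74), and genes of iron supply, Slc25a37 (-0.52) and Tfrc (-0.58). The haem enzyme genes Alas2 (-0.08), Alad (-0.05) and Ppox (0.03) did not pass. All 12 lower genes were also lower without WT_341, where Ppox was called higher (0.31). Without KO_339 the count of lower genes was 7. The higher genes were Bcl2l1, which encodes the survival protein BCL-XL, and Fam132a. The latter is an older symbol of C1qtnf12, which encodes a secreted protein and is not a red cell marker, although the list holds it.

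Some genes of the red cell membrane stood high in WT_341, as Gata1, Gfi1b and Klf1 did, while others, Gypc and Epb4.1 (0.973 and 1.06 times the other WT mean in WT_341), did not and were called lower in KO libraries. The anion exchanger gene Slc4a1 was at 12.1 CPM in WT_341, at 0.165 and 0.296 CPM in WT_343 and WT_344, and at 0.377, 0.683 and 0.390 CPM in the KO libraries. WT_341 alone was high. Ermap, a blood group gene, was at 86.6 CPM in WT_341, at 15.7 and 20.4 CPM in the other WT and at 13.96 to 25.3 CPM in the KO libraries. Of the 39 genes 19 were at least 2-fold higher in WT_341 than the mean of the other WT libraries, against 5.90% of all tested genes. Such high levels in WT_341 were not particular to red cell genes. They were also seen for 12 of 15 lymphoid progenitor and B cell genes and 11 of 17 neutrophil genes, but for 0 of 30 megakaryocyte genes. The summed level of the 39 was 1997 CPM in WT_341, 1414 CPM in WT_343, 1349 CPM in WT_344 and 1187 to 1331 CPM in KO libraries. The globin genes Hba-a1, Hbb-bt and Hbb-b1 are listed at 0 in all libraries.

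Without WT_341, 10 of 39 red cell genes were higher and 12 lower, beside 22.1% and 26.6% of all tested genes. Among the higher ones were Hemgn (log2 change 1.08), Car1 (1.02), Car2 (0.55) and the water channel gene Aqp1 (0.64). Over WT_343 and WT_344, Hemgn and Car1 were 2.12-fold and 2.04-fold higher in the KO mean, close to the 1.93-fold of Gata1 and 2.02-fold of Klf1, while Ermap, Rhag and Kel were at 1.002-fold, 1.05-fold and 0.935-fold. Slc4a1, at low levels in these libraries, was at 2.10-fold and did not pass without WT_341 (adjusted p = 0.0785). The plot of both deviations shows the factors beside the red cell and megakaryocyte genes.

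**Figure D4:**
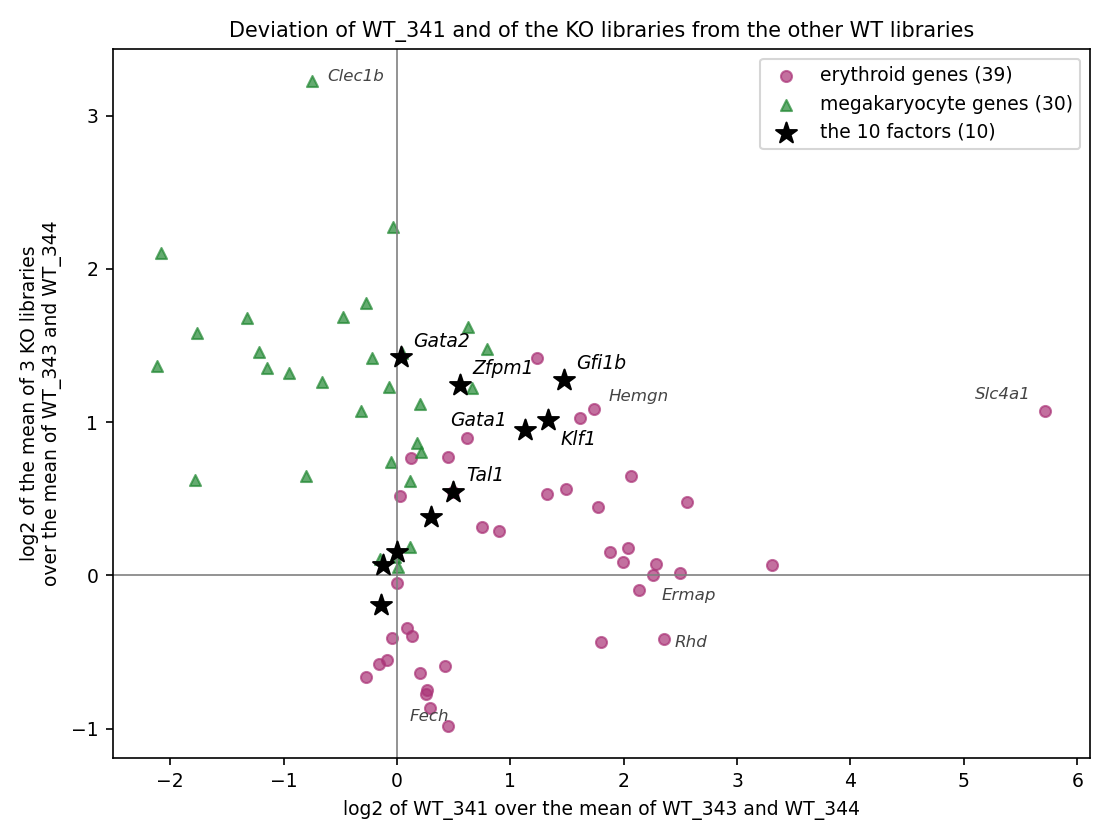
Each point is a gene: the horizontal axis is the log2 ratio of WT_341 to the mean of WT_343 and WT_344, and the vertical axis the log2 ratio of the mean of 3 KO libraries to the same WT mean. Red cell genes (circles) spread to the right, up to Slc4a1, megakaryocyte genes (triangles) lie high and mostly not to the right, and Gata1, Gfi1b and Klf1 (stars) lie both high and to the right.

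Megakaryocyte genes, a list of markers and of targets of GATA1, FLI1, RUNX1 and NFE2, were mostly higher. Of 30 tested, 22 rose and 0 fell, with a median log2 change of 1.32, and 19 rose also without WT_341. Clec1b, the platelet receptor CLEC-2, was at 1.119, 2.32 and 1.44 CPM in WT and 15.8, 21.3 and 15.5 CPM in KO libraries (log2 change 3.43). Itga2b, the integrin chain CD41, was at 25.5, 30.9 and 32.6 CPM and 65.9, 63.9 and 70.5 CPM (1.17). Every KO library was above every WT library for both. Gp1bb (2.29) and the growth factor gene Angpt1 (1.44) rose as well.

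The platelet chemokine genes Pf4 and Ppbp, chosen after their values were seen, varied by library within each genotype, whereas Gp1bb was at 0.740 to 1.05 CPM in WT and 4.29 to 4.44 CPM in KO libraries. Pf4, platelet factor 4, was at 3.098, 11.1 and 10.2 CPM in WT_341, WT_343 and WT_344 and at 20.4, 8.42 and 20.4 CPM in KO_339, KO_340 and KO_345. WT_341 and KO_340 were the lowest of their genotypes, and the same libraries were lowest for the macrophage gene C1qa (4.49 and 11.3 CPM, against 44.8 to 62.8 CPM in the other 4). Neither Pf4 (adjusted p = 0.151) nor Ppbp (0.0973) passed. Thbs1 and Tubb1, counted among the 22 higher genes, had the same lowest libraries and overlapped between genotypes. Tubb1 was at 1.27, 5.22 and 3.39 CPM in WT_341, WT_343 and WT_344. In KO_339, KO_340 and KO_345 it was at 17.4, 4.06 and 17.2 CPM. The other megakaryocyte genes called higher did not overlap. The count of 22 went down to 11 without KO_339 and to 11 without KO_345. The 13 macrophage genes summed to 545 to 883 CPM in WT and 669 to 987 CPM in KO libraries, with 1 called higher, and their part in the platelet gene levels was not tested.

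Mast cells, basophils and eosinophils also use GATA2 and GATA1. Of 23 tested genes of these cells 15 were higher and 1 lower, with a median log2 change of 1.08, and their summed level was 1742 to 2365 CPM in WT and 4272 to 4866 CPM in KO libraries. The eosinophil ribonuclease genes Ear1 (1.56) and Ear2 (1.70), near-identical copies whose reads may be split, eosinophil peroxidase Epx (1.35) and Alox15 (1.28) had the smallest adjusted p-values. Mast cell tryptases were at low levels. Tpsb2 rose (log2 change 2.74) from a mean of 0.0379 CPM in WT to 0.265 CPM in KO libraries, and Tpsab1 had counts in KO_345 only. Stem cell genes were higher for 12 of 18 (7 without WT_343 and 6 without KO_339) and lower for 0, with summed levels of 514 to 518 CPM in WT and 595 to 694 CPM in KO libraries. Genes of granulocyte-macrophage progenitors were lower for 11 of 16 and higher for 1, with sums of 18424 to 24083 CPM in WT and 9728 to 11778 CPM in KO libraries. Of the neutrophil genes 5 of 17 were higher and 0 lower, a count that was 16 without WT_341 and 0 without WT_344 or any 1 KO library. Of 15 lymphoid progenitor and B cell genes 0 passed edgeR's test, with 0 at an unadjusted p of 0.05 and 1 higher by DESeq2 (9 were higher without WT_341), of 13 T and NK cell genes 5 were higher and 1 lower, and of 12 stromal and endothelial genes 5 were higher and 0 lower. Without WT_344 each of these counts of 5 was 1. Whether the rise of Gata2 follows the share of any of these cells in the sort was not tested.

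Of all tested genes with at least 5 CPM, those whose levels followed each factor most closely over the 6 libraries were sought by the root-mean-square difference of centred log2 levels, as a description. For Gata2 the nearest was Epx (0.11), at 318 to 355 CPM in WT and 737 to 974 CPM in KO libraries, then the organic cation transporter gene Slc22a3 (0.11) and Ttc28 (0.11). For both Gata1 and Klf1 the nearest was the adenylyl cyclase gene Adcy6 (0.06 and 0.07), at 25.3 CPM in WT_341, 10.4 and 12.1 CPM in the other WT and 18.2 to 27.9 CPM in KO libraries, and it was also among the 3 nearest to Gfi1b. Tfr2, a transferrin receptor gene other than Tfrc, was among the 3 nearest to Tal1 (0.05), and Shank3 was nearest to Zfpm1 (0.16). Among the factors themselves, Gata1 and Klf1 were the closest pair (0.11) and Gata2 and Lmo2 the farthest (0.81). These profiles rest on 6 points that share the split by genotype and the position of WT_341.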

How the data were processed

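Messenger RNA of Kit-positive bone marrow cells was measured in 6 libraries, 3 WT and 3 KO, 1 mouse each, made with a strand-specific TruSeq kit and sequenced as paired 75 bp reads, per the labels' protocols. The deposited values are raw counts per gene symbol, not normalized by the authors. The submitters' processing notes name FastQC, Trimmomatic, STAR, HTSeq and mm10, without versions. Whether counting used strand, how it handled multi-mapped reads and which annotation it used was not given in the sources used here. Groups came from the titles. No column belonged to other samples.

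The gene-wise test was that of edgeR 4.0.16 (R 4.3.3), with filterByExpr defaults (minimum count 10, minimum total 15), TMM factors, robust glmQLFit and glmQLFTest, with Benjamini-Hochberg adjustment over 15742 genes at 0.05. Adjusted p-values come from this test unless a permutation or another tool is named. Log2 ratios used counts plus 0.5 and exact permutations. Alternatives were upper-quartile, RLE and no scaling, DESeq2 1.42.0, limma-voom (limma 3.58.1) with and without quality weights, 2 other filters and leaving out each library. The gene test was checked on simulated counts. The gene-wise p-values weigh the genotype difference against the spread between these mice, which is estimated with information from other genes.

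The members and the 13 gene lists were chosen with earlier results of these data known. The genes named are the 10 factors, Ints11, Spi1 and Gfi1, up to 4 called genes per list with the smallest adjusted p, and the 3 nearest profiles per factor; other list genes, Kit, Xist and the globin genes were named after their values were seen. List symbols absent from the table were matched through RefSeq synonyms, 5 in all; Ahsp was not used here. The values of 1 gene of the lists, which this choice by adjusted p includes, are not reported here. Coordinates are GENCODE M21 on GRCm38, 1-based, and sequences are from RefSeq (GRCm38.p6).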

Additional observations from a re-analysis of the deposited data

How the results depend on the processing

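The count of 2 higher factors became 5 with upper-quartile scaling (Gata2, Zfpm1, Nfe2, Fli1 and Runx1) and 7 with limma-voom with sample quality weights, and ranged from 1 to 7 when single libraries were left out. Calls over all tested genes, in either direction, moved as well. They numbered 5659 in the main fit, 5389 with upper-quartile scaling, 8417 with sample quality weights and 2302 to 7879 with single libraries left out. The count of lower factors was 0 in all 14 alternatives. No factor changed direction in any alternative, and Gata2 was called in all 14 and Zfpm1 in 10 of 14. Over the 14 alternatives adjusted p-values ranged from 8.47e-14 to 0.0203 for Gata2, 0.000745 to 0.0760 for Zfpm1, 0.00999 to 0.623 for Gata1, 0.00477 to 0.595 for Gfi1b and 0.00376 to 0.763 for Klf1. The last 3 passed without WT_341 and with sample quality weights only. Over the libraries left out, the Gata1 to Gata2 difference ranged from -1.08 to -0.49, Fli1 to Klf1 from -0.94 to -0.10, Gata1 to Spi1 from 0.11 to 0.77 and Gfi1b to Gfi1 from 0.33 to 1.19; a pseudocount of 5 moved none by as much as 1 SD. Higher megakaryocyte genes numbered 11 to 25, higher mast cell, basophil and eosinophil genes 10 to 18, lower red cell genes 7 to 12, higher red cell genes 0 to 10 higher neutrophil genes 0 to 17, higher stem cell genes 6 to 12, higher T and NK cell genes 1 to 7 and higher stromal and endothelial genes 1 to 6. The cause of these shifts was not tested. No paired analysis was possible because the labels share no replicate numbers between the genotypes. With 3 mice per genotype, the exact permutation test used for the ratios cannot reach 0.05.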
